A study of Mus musculus with 39 samples.

Results

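The genes described here are 8 apolipoprotein genes, the lipid transfer gene *Mttp* and *Gm10680*, a transcript antisense to *Apoa4*. They were taken by symbol from the gene counts, 10 of the 45706 genes listed in every library. The apolipoproteins are *Apoa1*, *Apoa2*, *Apoa4*, *Apoa5*, *Apob*, *Apoc2*, *Apoc3* and *Apoe*. They were chosen with *Apoa4*'s lower level in E47-mutant livers after long glucocorticoid exposure already known, so the genotype values under those treatments are descriptions without a test.

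The data are poly(A) RNA-seq libraries from 39 mouse tissues in 12 groups, all from male C57BL/6 mice on chow. E47 is a helix-loop-helix transcription factor spliced from *Tcf3*, and the question was how its loss alters the response to glucocorticoids, adrenal-type steroids bound by the glucocorticoid receptor (GR). E47KO mice lacked E47 in the whole body and wild-type (WT) littermates were their controls. Livers of 6 E47KO and 5 WT mice were untreated. Corticosterone (Cort, 100 µg/ml in drinking water for 3 weeks) was given to 4 E47KO and 4 WT mice, whose livers were taken. Dexamethasone (Dex, 10 µg/ml in drinking water for 3 weeks) was given to mice that supplied 3 E47KO and 2 WT livers, 2 E47KO and 2 WT samples of epididymal white adipose tissue (WAT), and 3 E47KO and 2 WT quadriceps muscles. The long-treated mice were killed after a glucose tolerance test, for which they had been fasted overnight. For the acute response, mice with free access to food were injected with 1 mg/kg Dex and killed 1 h later. These were 3 AlbCre;E47fl/fl mice (E47LKO), in which Cre under the albumin promoter deletes E47 in hepatocytes, and 3 floxed mice without Cre. Of these controls, replicate 1 carried 1 floxed allele (E47fl/+) and replicates 2 and 3 carried both.

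Apolipoproteins are the protein shell of the particles that carry triglyceride and cholesterol in blood. *Apob* is the scaffold of very-low-density lipoprotein, onto which *Mttp*, the microsomal triglyceride transfer protein, loads lipid in the hepatocyte. *Apoa1* and *Apoa2* are the main proteins of high-density lipoprotein. *Apoc2* activates lipoprotein lipase, *Apoc3* restrains it and slows the uptake of remnants, and *Apoa5* promotes lipolysis. *Apoe* is the ligand by which remnants are cleared. *Apoa4* is made in the intestine and the liver, and in liver its expression is known to follow hepatic triglyceride.

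Of the genes, 5 lie together on mouse chromosome 9. In GRCm38 (mm10) the cluster spans 43340 bases, with *Apoa1* at chr9:46228580-46230466 on the plus strand, *Apoc3* at chr9:46232933-46235636 on the minus strand, *Apoa4* at chr9:46240696-46243459 on the plus strand and *Apoa5* at chr9:46268633-46271919 on the plus strand. *Gm10680* lies on the minus strand at chr9:46242621-46243529, across the 3′ end of *Apoa4*. Its exons share 632 bases with those of *Apoa4*, which is 34.8% of the exon length of *Apoa4* and 90.03% of that of *Gm10680*. Elsewhere, *Apoe* (chr7:19696109-19699188) and *Apoc2* (chr7:19671579-19677941) are neighbours on the minus strand, *Apob* is at chr12:7977648-8016835 on the plus strand, *Mttp* at chr3:138089854-138144968 on the minus strand and *Apoa2* at chr1:171225054-171226379 on the plus strand. *Mttp* shares 457 exon bases (7.36%) with the antisense gene *Trmt10a* and 132 with *Gm43691*. No other gene of the set overlapped an exon of another annotated gene.

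The upstream sequences of *Apoa4* and *Apoa1* are shown because these close neighbours differed most in their response to Cort. They are RefSeq GRCm38.p6 sequence on the plus strand, 5′ to 3′, ending 1 base before the first annotated exon. Capitals mark E-boxes (CANNTG, the motif that helix-loop-helix factors such as E47 recognise) and GR half-sites (AGAACA or its reverse complement).
Apoa4, chr9:46240594-46240695: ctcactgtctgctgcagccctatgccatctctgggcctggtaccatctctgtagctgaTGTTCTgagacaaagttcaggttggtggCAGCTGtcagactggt
Apoa1, chr9:46228380-46228579: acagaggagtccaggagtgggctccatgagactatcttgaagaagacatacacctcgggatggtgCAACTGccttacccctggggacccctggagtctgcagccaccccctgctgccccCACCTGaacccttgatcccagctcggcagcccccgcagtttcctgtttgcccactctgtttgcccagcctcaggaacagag
The *Apoa4* sequence, 102 bases long, held 1 E-box (CAGCTG) and 1 GR half-site, at positions -164 and -192 from the RefSeq start. A second *Apoa4* half-site lay at -110, past the printed bases. The *Apoa1* sequence, 200 bases long, held 2 E-boxes, CAACTG at -185 and CACCTG at -131, and no half-site. Over windows from 250 bases before to 50 bases after a RefSeq start, 8 of the genes had 12 windows. *Apoc3* and *Gm10680* had none. CANNTG on either strand was in 8 of the 12 windows (6 of the 8 genes) and in 72.3% of all 32851 windows. CAGCTG was in 3 of 12 windows (2 genes) and 16.3% of all windows. CACCTG was in 7 of 12 (5 genes) and 20.2%, and AGAACA in 4 of 12 (4 genes) and 19.0%. Windows of 1 gene can overlap. CAGCTG and CACCTG are also counted under CANNTG. The matches are letters in a window and were not tested for binding.

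Each library held 15513941 to 54560884 counts in genes. The livers carried all 12 hepatocyte markers, WAT carried *Adipoq* at 1421 to 2132 CPM (counts scaled to a common library size by the TMM method) and muscle carried *Ckm* at 7756 to 11690 CPM. *Tcf3* as a whole did not separate the genotypes (11.6 to 14.1 CPM in untreated E47KO livers and 11.9 to 18.5 in WT livers), and E47 itself cannot be read from gene counts. Muscle of WT replicate 2 held hepatocyte transcripts, with *Alb* at 132 CPM against 1.10 in WT replicate 1. Of the untreated livers, E47KO replicate 1 and WT replicates 1 and 2 stood apart from the other 27 livers on a principal component carrying 6.95% of the variance. They also carried the highest *Apoe* and *Apoa2* of their groups, and the lowest *Apob*. They were picked out with their values in view, so results whose call or count changed without them are also given that way. The long treatments, the injection and the untreated mice were separate experiments that differed in library type, and the long-treated mice also in feeding. Treatment and experiment cannot be told apart in any contrast between them. The 12 hepatocyte markers summed to 104306 to 121855 CPM in untreated WT livers, and lay wholly above that in WT livers after Cort (136290 to 171540 CPM) and Dex (142314 to 142973 CPM) and in controls 1 h after Dex (138982 to 150454 CPM). In E47KO livers the sums overlapped, at 98093 to 141619 CPM untreated, 113696 to 136459 CPM after Cort and 127803 to 165620 CPM after Dex. The part of this shift in the treatment changes given here was not tested.

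*Apoa4* and *Gm10680* were first compared in the strand columns, since without strand their reads are shared. The main counts ignore strand and leave out reads that overlap exons of both genes. In 25 libraries, counts for each strand setting were also available. There the unstranded column left out 51.5 to 56.1% of the *Apoa4* reads 1 h after Dex, 53.8 to 56.7% in 8 untreated livers, 65.7 to 68.5% in the 3 untreated livers that stood apart, and 62.1 to 65.4% after Cort. The reads left out equalled the *Gm10680* reads summed over both strand columns to within 0.0418% in every library.

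*Gm10680* had 0 counts in the unstranded column of all 25 libraries. In the 17 stranded livers (1 h Dex and untreated), reads of the transcribed strand gave *Gm10680* 0 to 12 counts per library, with 7 libraries at 0. Their sum was 56 counts beside 84444 for *Apoa4*. Counted with the opposite strand setting, which assigns *Apoa4* reads to the antisense gene, *Gm10680* took 487 to 7302 counts. The stranded livers therefore held almost no reads of *Gm10680*'s own strand. The Cort libraries are labelled stranded, but 50.1% of their strand counts at most lay in the larger column. There *Gm10680* took 13402 to 78109 counts in the first column and 13248 to 78368 in the second, with 49.1 to 50.3% in the first, so its own transcription could not be separated from *Apoa4*'s. In the 14 libraries after 3 weeks of Dex, with 1 unstranded column, the highest *Gm10680* count was 1, in 1 library. *Gm10680* passed the filter on low counts in no comparison and was not tested.

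**Figure D1:**
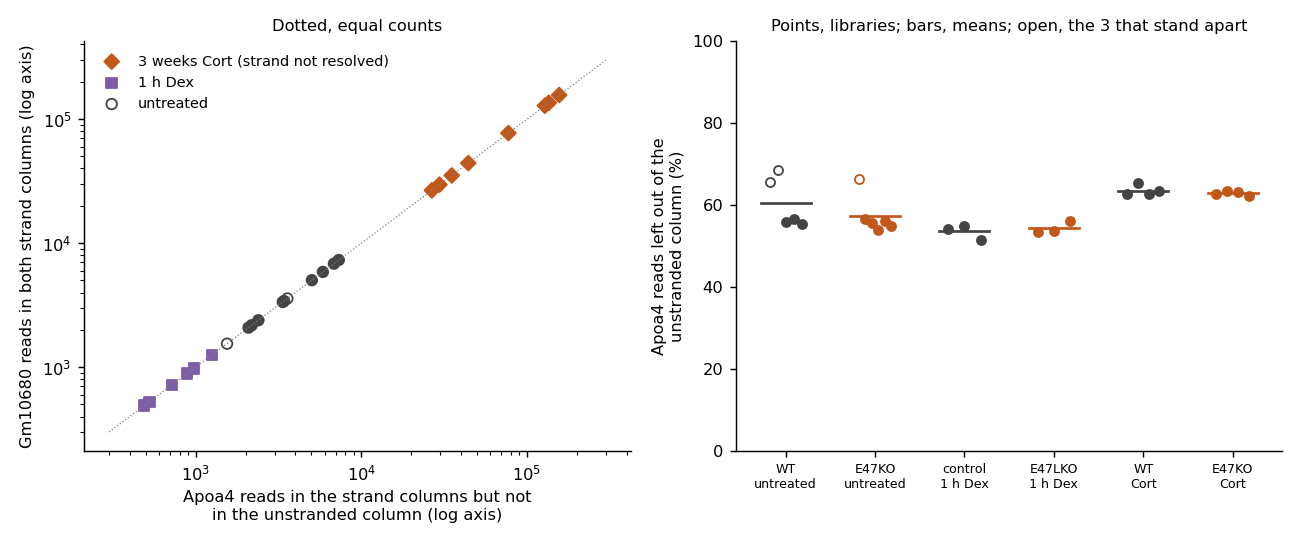
Left, *Gm10680* reads in both strand columns (y axis, counts) against *Apoa4* reads left out of the unstranded column (x axis, counts), 1 point per library, both axes logarithmic. Right, the percentage of *Apoa4* reads left out (y axis), by group, with bars at the means and open circles for the 3 untreated livers that stood apart. The points follow the line of equality within 0.0418%, and the share left out was 51.5 to 68.5%.

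*Apoa4* was the most variable of the genes across livers. Per kilobase of exon, its mean level ran from 20.1 CPM per kb in E47LKO livers to 1752 in WT livers after Dex, an 87.2-fold span over the 8 liver groups. The next widest span was that of *Apoa1*, at 3.83-fold (2591 to 9919 CPM per kb). *Apoa5* spanned 2.94-fold, *Apoc2* 2.02-fold and *Apoc3* 1.99-fold, while *Apoe*, *Apob*, *Mttp* and *Apoa2* spanned 1.66-, 1.60-, 1.58- and 1.28-fold. On the same scale *Apoa2* ranked 1 of the 9 protein-coding genes in all 8 liver groups (10277 to 13172 CPM per kb). *Apoa4* ranked 9 in the untreated and injected livers, and 5 in WT livers after Cort and in both genotypes after Dex. In E47KO livers after Cort it ranked 7. The ranks of *Apoa4* rest on counts without its overlap with *Gm10680*, so its per-kilobase levels are too low against the other genes. The 9 genes together summed to 29346 to 53534 TMM-scaled CPM in the 30 livers.

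In untreated WT livers *Apoa4* stood at 66.1, 26.4, 48.7, 139 and 175 CPM. In untreated E47KO livers it stood at 66.9, 47.8, 102, 59.7, 135 and 85.7 CPM, inside the WT range. After 3 weeks of Cort the 4 WT livers read 2042, 1388, 992.5 and 1939 CPM, and the 4 E47KO livers 608, 528, 344 and 479 CPM. Every Cort-treated liver exceeded every untreated one, and the Cort genotypes did not overlap. After 3 weeks of Dex the WT livers read 2133 and 4228 CPM and the E47KO livers 1717, 851 and 1761 CPM, again without overlap. At 1 h after Dex the levels were 48.9, 63.5 and 40.0 CPM in controls and 31.3, 30.4 and 47.7 CPM in E47LKO livers, and these groups overlapped.

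In order of mean level, *Apoa4* was highest in WT livers after Dex (3180 ± 1482 CPM, SD, n = 2), whose range lay above that of WT livers after Cort (1590 ± 491, n = 4). E47KO livers after Dex (1443 ± 513, n = 3) overlapped the WT Cort livers, and E47KO livers after Cort (490 ± 110.6, n = 4) lay below both. Untreated WT livers (91.1 ± 63.1, n = 5), untreated E47KO livers (82.9 ± 32.0, n = 6), 1 h controls (50.8 ± 11.8, n = 3) and E47LKO livers (36.5 ± 9.75, n = 3) followed, each overlapping the next. In the strand columns, which keep the reads shared with *Gm10680*, the *Apoa4* levels after Cort were 4680, 3495, 2339 and 4555 CPM in WT and 1419, 1263, 819 and 1113 CPM in E47KO livers. Untreated, they were 76.9 to 360 CPM in WT and 102 to 282 CPM in E47KO livers. Counting the shared reads raised the levels in these groups, and all Cort-treated livers again lay above all untreated ones.

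**Figure D2:**
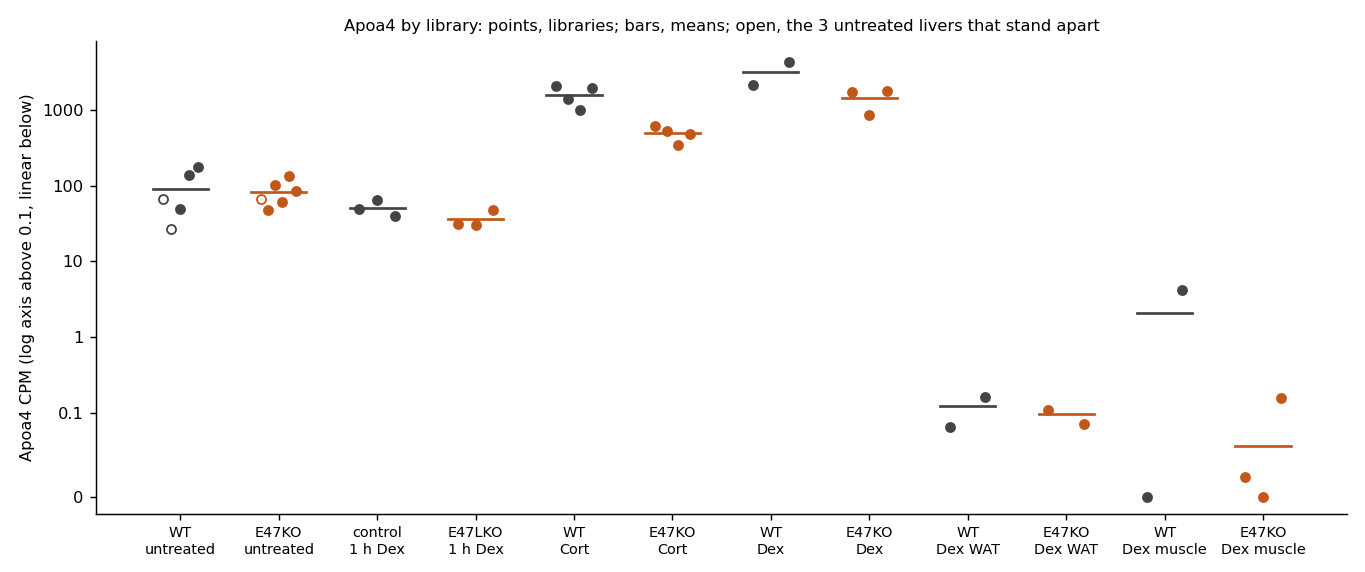
*Apoa4* in each of the 39 libraries (y axis, CPM from the unstranded counts, logarithmic above 0.1 and linear below), by group on the x axis; points are libraries, open for the 3 untreated livers that stood apart, and bars are group means. All livers given Cort or Dex for 3 weeks lie at 344 CPM or above, and no untreated or injected liver exceeds 175 CPM.

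Long glucocorticoid exposure was compared with no treatment within each genotype, in 1 model of the 30 livers (edgeR quasi-likelihood test, adjusted p over 16227 genes). The contrasts of 1 genotype share their untreated livers, so they are not independent of each other. They also reuse the Cort and Dex livers in which *Apoa4* was picked for its genotype difference. In WT livers after Cort, 5 of the 9 genes passed the test (*Apoa4*, *Apoc3*, *Apoc2* and *Apob* higher, *Apoa1* lower), where 33.2% of all genes did. In E47KO livers after Cort, 3 of 9 passed (*Apoa4*, *Apoe* and *Apoa5*, all higher; 38.9% of all genes). After Dex, 4 of 9 passed in WT (*Apoa4*, *Mttp*, *Apob* and *Apoc2*, all higher; 31.9%) and 3 of 9 in E47KO livers (*Apoa4*, *Apob* and *Mttp*, all higher; 37.8%). With 9 genes, counts this close to the shares of all genes show nothing particular to the set. With all libraries, *Apoa4* was the only one of the 9 to pass in all 4 contrasts. The median of the 9 log2 fold changes was 0.25 in WT and 0.14 in E47KO livers after Cort, and 0.58 and 0.34 after Dex, where the median over all genes lay between -0.04 and 0.01. The WT counts rested on few livers, with 3 calls without Cort replicate 4 and 2 or 1 without Dex replicate 1 or 2. They became 5 after Cort and 7 after Dex without the 3 untreated livers that stood apart, and the E47KO counts 4 and 5. Without those 3 livers *Apoc3* and *Apoe* also passed in all 4 contrasts.

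On the log2 scale, *Apoa4* rose after Cort by 4.12 in WT livers (SE 0.43, edgeR adjusted p = 2.04e-07) and by 2.57 in E47KO livers (SE 0.38, edgeR adjusted p = 1.12e-05). After Dex it rose by 5.14 in WT livers (SE 0.48, edgeR adjusted p = 1.47e-08) and by 4.13 in E47KO livers (SE 0.41, edgeR adjusted p = 2.61e-08). Only 45 of the 16227 genes rose more than *Apoa4* in WT livers after Cort, 135 in E47KO livers after Cort, 74 in WT livers after Dex and 85 in E47KO livers after Dex. Without the 3 untreated livers that stood apart the values were 3.70, 2.50, 4.73 and 4.08, all still past the threshold. With the strand column in place of the unstranded one, the Cort values were 4.24 in WT and 2.72 in E47KO livers. The Dex values became 3.91 and 2.95 because the Dex libraries have only the unstranded column, which leaves the shared reads out on 1 side alone. *Apoa4* was picked on the genotype difference in these same Cort and Dex livers. That choice favours a larger rise in WT and a smaller one in E47KO livers. The *Apoa4* p-values and ranks given here are therefore not independent of it.

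**Figure D3:**
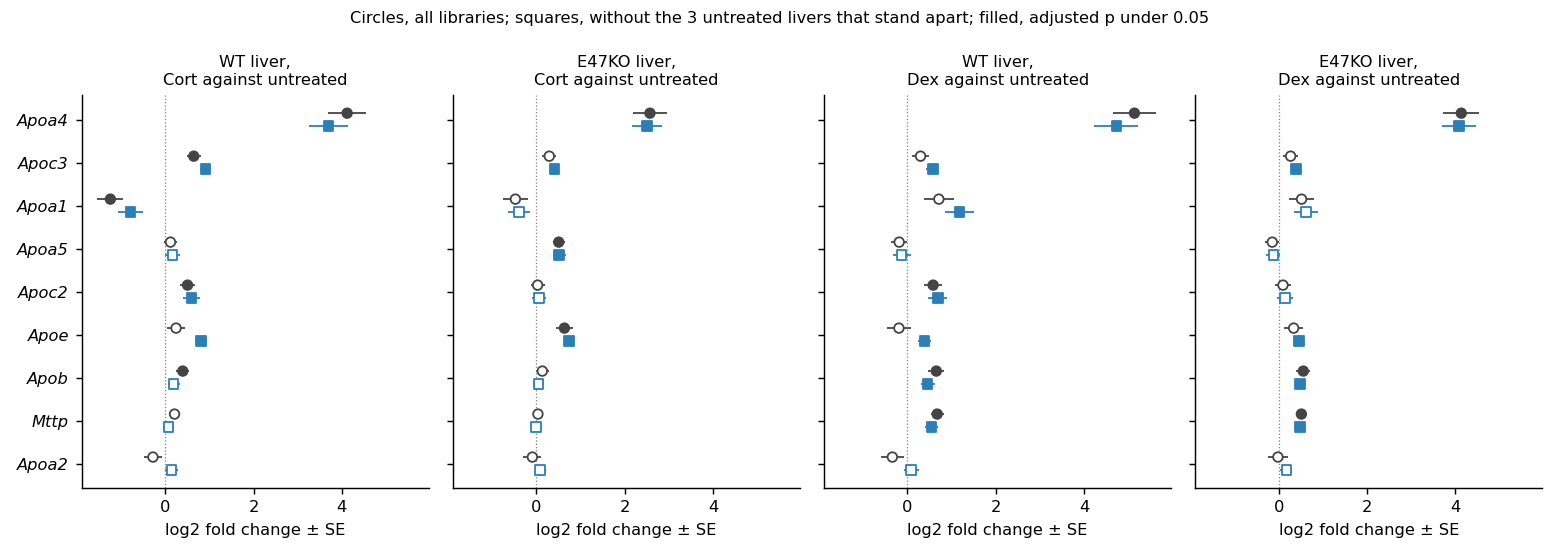
Log2 fold change against untreated livers of the same genotype (x axis) for the 9 protein-coding genes, 1 panel per contrast, with bars of 1 SE. Circles use all libraries and squares leave out the 3 untreated livers that stood apart; filled symbols have an edgeR adjusted p under 0.05. *Apoa4* lies far to the right of the others in all 4 panels.

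*Apoa1*, the neighbour of *Apoa4* and the main protein of high-density lipoprotein, moved the other way after Cort. It stood at 1862, 4780, 3862 and 2305 CPM in WT livers after Cort, and at 9193, 12312, 5381, 4683 and 6301 CPM in untreated WT livers. These groups overlapped by 1 library, and by edgeR *Apoa1* fell by 1.24 on the log2 scale (SE 0.29), with an adjusted p of 0.00208. The 2 highest untreated livers were among those that stood apart. Without them the fall was 0.78 (log2 fold change -0.78, SE 0.28, edgeR adjusted p = 0.0345). In E47KO livers after Cort, *Apoa1* read 3440, 3461, 6966 and 5133 CPM against 4700 to 8919 untreated, and the change was -0.47 (SE 0.28, edgeR adjusted p = 0.179). After Dex it read 9295 and 15224 CPM in WT livers and 11047, 7206 and 10091 CPM in E47KO livers. The WT change of 0.71 did not pass with all libraries (edgeR adjusted p = 0.113), and passed at 1.18 without those that stood apart (edgeR adjusted p = 0.00852). *Apoa2*, the second protein of high-density lipoprotein, passed in no treatment contrast, with changes between -0.34 and -0.01.

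*Apoc3*, which lies between *Apoa1* and *Apoa4* and inhibits triglyceride clearance, stood at 2537, 2922, 2576 and 3398 CPM in WT livers after Cort. Untreated WT livers held 2413, 2219, 1414, 1630.3 and 1455 CPM, all lower, and *Apoc3* rose by 0.65 (SE 0.16, edgeR adjusted p = 0.0030). The highest untreated values were again those of the livers that stood apart, and without them the rise was 0.92 (edgeR adjusted p = 1.92e-05). E47KO livers after Cort held 1792, 1712, 1892 and 1748 CPM against 1278 to 2113 untreated. That change of 0.29 missed the threshold with all libraries (edgeR adjusted p = 0.131) and passed at 0.41 without E47KO replicate 1 and the WT pair (edgeR adjusted p = 0.00415). After Dex, *Apoc3* read 2030 and 2408 CPM in WT and 1460, 1757 and 2056 CPM in E47KO livers, with changes of 0.30 and 0.27 that passed only without the same 3 livers, at 0.58 and 0.40.

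*Apoc2*, the activator of lipoprotein lipase, stood at 322, 326, 247 and 346 CPM in WT livers after Cort and at 303 and 344 CPM after Dex. Untreated WT livers held 182 to 272 CPM, with the Dex group wholly above. The rises were 0.51 after Cort (SE 0.16, edgeR adjusted p = 0.0179) and 0.58 after Dex (SE 0.20, edgeR adjusted p = 0.0261). In E47KO livers *Apoc2* held 218, 229, 171 and 195.1 CPM after Cort and 179, 181 and 277 CPM after Dex, beside 158 to 254 CPM untreated. Both changes were small in E47KO livers, at 0.03 (SE 0.16) and 0.10 (SE 0.17), and did not pass. Whether the *Apoc2* change differed between genotypes was not tested. The WT call after Cort was lost without Cort replicate 4 (0.45, edgeR adjusted p = 0.0607), and that after Dex without either Dex liver or untreated replicate 3.

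*Apoa5*, the cluster's gene for a promoter of lipolysis, stood at 1882, 1981, 2275 and 2128 CPM in E47KO livers after Cort and at 1024 to 1958 CPM untreated. It rose by 0.51 (SE 0.14, edgeR adjusted p = 0.00532). WT livers held 1545, 1724, 1782 and 1663 CPM after Cort beside 1375 to 1768 untreated, and the change of 0.12 did not pass (edgeR adjusted p = 0.551). After Dex the *Apoa5* changes were -0.19 in WT and -0.14 in E47KO livers, neither past the threshold.

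*Apob*, the scaffold of very-low-density lipoprotein, stood at 8709 and 8791 CPM in WT livers after Dex and at 7846, 8161 and 10906 CPM in E47KO livers. Both groups lay wholly above their untreated livers (4181 to 7132 and 4658 to 7542 CPM). The rises were 0.65 (SE 0.18, edgeR adjusted p = 0.0078) and 0.56 (SE 0.16, edgeR adjusted p = 0.00628). After Cort, *Apob* read 7202, 7796, 7503 and 7151 CPM in WT livers, a rise of 0.40 (SE 0.15, edgeR adjusted p = 0.043). That call was lost without the livers that stood apart (0.19, edgeR adjusted p = 0.28), and without any 1 of the 4 Cort livers. The Dex calls were lost without either WT liver, and without E47KO replicate 3. In E47KO livers after Cort the change was 0.14 (edgeR adjusted p = 0.483).

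*Mttp*, which lipidates the *Apob* protein, stood at 460 and 594 CPM in WT and at 519, 368 and 542 CPM in E47KO livers after Dex. Untreated livers held 286 to 395 CPM in WT and 292 to 380 CPM in E47KO. *Mttp* rose by 0.67 in WT (SE 0.15, edgeR adjusted p = 0.00117) and by 0.52 in E47KO livers (SE 0.13, edgeR adjusted p = 0.00249). After Cort it held 346 to 417 CPM in WT and 318 to 371 CPM in E47KO livers, with changes of 0.21 and 0.04 that did not pass. The gene's calls after Dex were kept without the livers that stood apart, at 0.54 and 0.48. The WT call was lost without Dex replicate 2 (0.48, edgeR adjusted p = 0.0917).

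*Apoe*, the ligand for remnant uptake, stood at 18432, 18072, 16863 and 17244 CPM in WT livers after Cort and at 18649, 18400, 16563 and 17662 CPM in E47KO livers. Untreated E47KO livers held 16304 CPM in replicate 1 and 9064 to 12276 CPM in the other 5, and *Apoe* rose by 0.64 (SE 0.20, edgeR adjusted p = 0.0144). Untreated WT livers held 21770 and 22787 CPM in replicates 1 and 2 and 9274 to 10833 CPM in the others. The WT change was 0.25 with all libraries (edgeR adjusted p = 0.383). It was 0.81 without the livers that stood apart (SE 0.13, edgeR adjusted p = 5.93e-05). After Dex, *Apoe* held 12317 and 13422 CPM in WT and 12357, 14818 and 16331 CPM in E47KO livers. The WT change after Dex was -0.19 with all libraries and 0.38 without those livers (edgeR adjusted p = 0.0485), so the direction turned on them. In E47KO livers after Dex, *Apoe* passed only without the livers that stood apart.

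**Figure D4:**
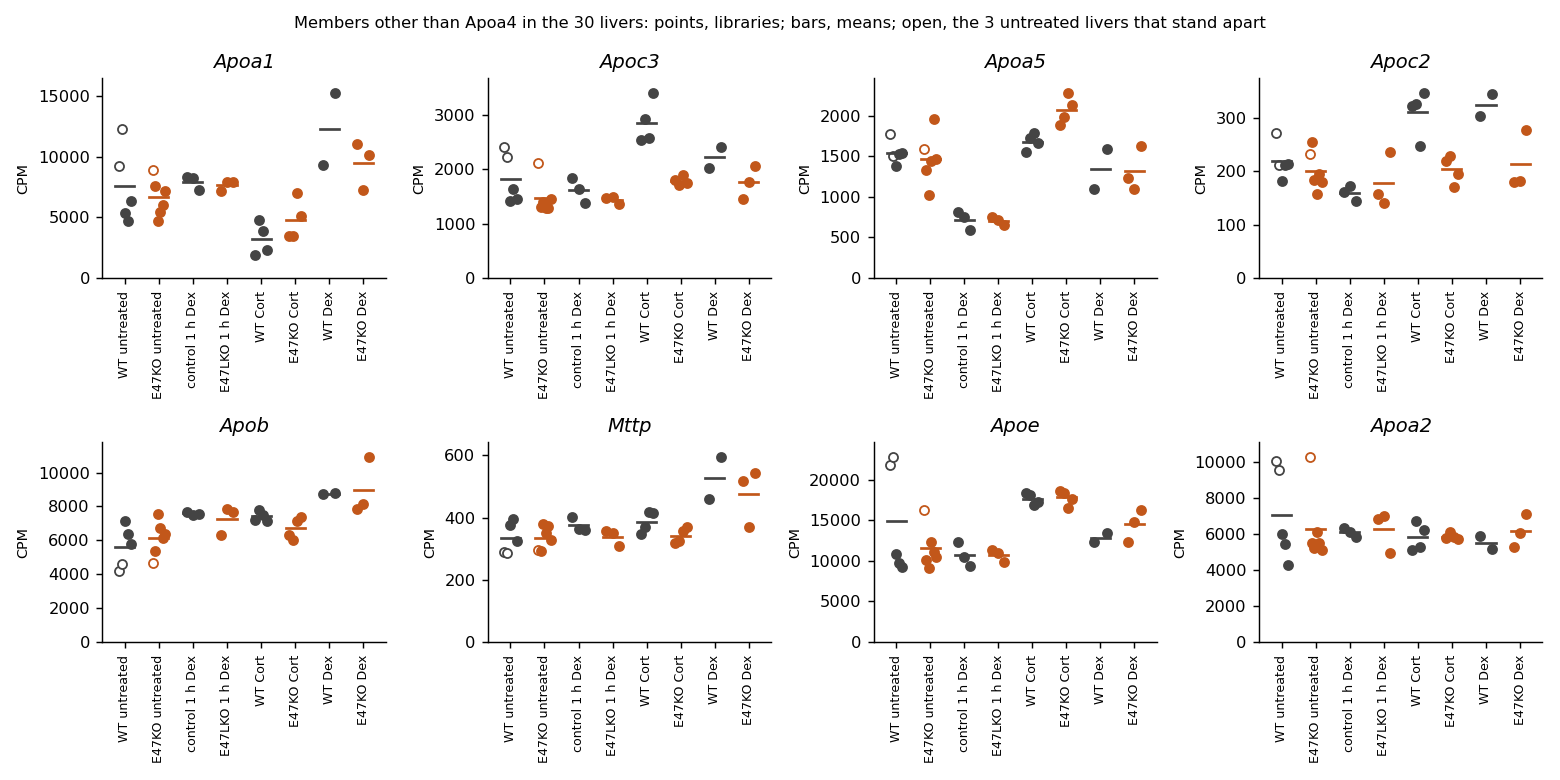
Levels of the 8 protein-coding genes other than *Apoa4* in the 30 livers (y axes, CPM, linear from 0), 1 panel per gene and 1 column of points per group on the x axis, with bars at the means; open circles are the 3 untreated livers that stood apart. The open circles lie highest in their groups for *Apoe* and *Apoa2* and lowest for *Apob*.

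The acute response was read from the 3 floxed control livers 1 h after Dex against 5 untreated WT livers, which differ in genotype and RNA kit as well as injection. Of the 9 genes, 2 passed, where 20.4% of all genes did. *Apoa5* read 808.2, 745 and 590 CPM against 1375 to 1768 CPM and fell by 1.05 in log2 units (SE 0.16, edgeR adjusted p = 6.34e-05), and the call was kept without the livers that stood apart (edgeR adjusted p = 0.000555). *Apob* read 7687, 7516 and 7582 CPM and rose by 0.49 (SE 0.16, edgeR adjusted p = 0.0321), a call lost without those livers (0.29, edgeR adjusted p = 0.167) and without any 1 of the 3 injected livers. *Apoa4*, the gene with the widest span after long treatment, had a change of -0.79 (SE 0.44, edgeR adjusted p = 0.215), or -1.20 without those livers (edgeR adjusted p = 0.0509) and -0.41 without untreated WT replicate 5 (edgeR adjusted p = 0.52). The injected livers thus held no *Apoa4* level above the untreated range. In E47LKO livers *Apoa5* read 746, 715 and 651 CPM, all below untreated WT livers too.

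Genotype was tested where the choice of genes had not used the contrast. In untreated livers 0 of 9 genes passed (0.0288% of all genes), and 0 of 9 had an unadjusted p under 0.05, as against 505 of 13904 genes. DESeq2 called 0 as well. The differences, E47KO minus WT, ran from -0.36 for *Apoe* to 0.14 for *Apob*, with a smallest p of 0.111 for *Apoc3* by edgeR. For *Apoa4* the difference was -0.13 (SE 0.43, edgeR adjusted p = 0.981), or -0.48 without the livers that stood apart. The 5 WT livers spread from 26.4 to 175 CPM, which limits what could be detected. Within ranges of neighbouring animal numbers, with 1 or 2 livers per genotype in each, the *Apoa4* difference was 0.41, -0.83, -0.70 and 0.02.

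In livers 1 h after Dex, 0 of 9 genes passed between E47LKO and controls, where 0.0% of all 12601 genes did, and 0 of 9 had an unadjusted edgeR p under 0.05, as against 466 genes. DESeq2 called 0 of 9. *Apoa4* differed most, at -0.46 (SE 0.22, edgeR adjusted p = 1.0), and 393 genes were lower by more. The value was -0.26 without control replicate 2 and -0.72 without E47LKO replicate 3. *Mttp* was the only gene whose groups did not overlap, at 356, 349 and 309 CPM in E47LKO and 403, 362 and 361 CPM in control livers, where 8.13% of all genes had separate groups. Its difference was -0.14 (SE 0.09, edgeR adjusted p = 1.0). The remaining 7 lay between -0.16 and 0.17.

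After Cort, where the genes were chosen on the contrast, *Apoa4* was lower in E47KO than in WT livers by -1.69 on the log2 scale (SE 0.25). With the strand column it was -1.71. Of 14588 genes, 46 were lower by more. Other genes of the cluster also differed: *Apoc3* by -0.67 (SE 0.11), *Apoa5* by 0.30 (SE 0.09) and *Apoa1* by 0.57 (SE 0.34), so that 2 genes of the cluster were lower and 2 higher in E47KO livers. The *Apoa1* levels overlapped between genotypes, and its difference was 0.33 without E47KO replicate 3, the highest Cort liver. *Apoc2* differed by -0.61 (SE 0.13), while *Apob* (-0.14), *Mttp* (-0.17), *Apoe* (0.02) and *Apoa2* (0.01) differed by 0.17 at most. Levels did not overlap between genotypes for *Apoa4*, *Apoc3*, *Apoc2* and *Apoa5*, 4 of 9, beside 6.44% of all genes. *Alb*, the most abundant hepatocyte marker, was separate as well, at 92709 to 134883 CPM in WT and 76591 to 92609 CPM in E47KO livers, while the summed hepatocyte markers overlapped narrowly. The part of this shift in the apolipoprotein differences was not tested. Within the ranges of animal numbers the *Apoa4* difference was -1.85 and -1.77, and the *Apoa1* difference 0.89 and 0.78. The first range held 2 E47KO livers and 1 WT liver, and the second 2 E47KO and 3 WT livers. Against the untreated genotype difference, that after Cort was lower by 1.55 for *Apoa4* (-1.55, SE 0.55) and higher by 0.77 for *Apoa1* (SE 0.39). Without the untreated livers that stood apart these were -1.20 (SE 0.52) and 0.40 (SE 0.37).

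After Dex the *Apoa4* difference, E47KO minus WT, was -1.13 (SE 0.40), with 141 of 13300 genes lower by more. Leaving out WT replicate 2, the liver at 4228 CPM, gave -0.56, and leaving out WT replicate 1 gave -1.54. *Apoc2* differed by -0.60 (SE 0.22), *Apoa1* by -0.37 (SE 0.31) and *Apoc3* by -0.33 (SE 0.21), the last at -0.20 without WT replicate 2 and -0.22 without E47KO replicate 1. The other 5 lay between -0.14 and 0.18. Groups did not overlap for *Apoa4* and *Apoc2*, 2 of 9, beside 15.1% of all genes. Within the ranges of animal numbers, with 1 WT liver in each, *Apoa4* differed by -0.82 and -1.26.

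**Figure D5:**
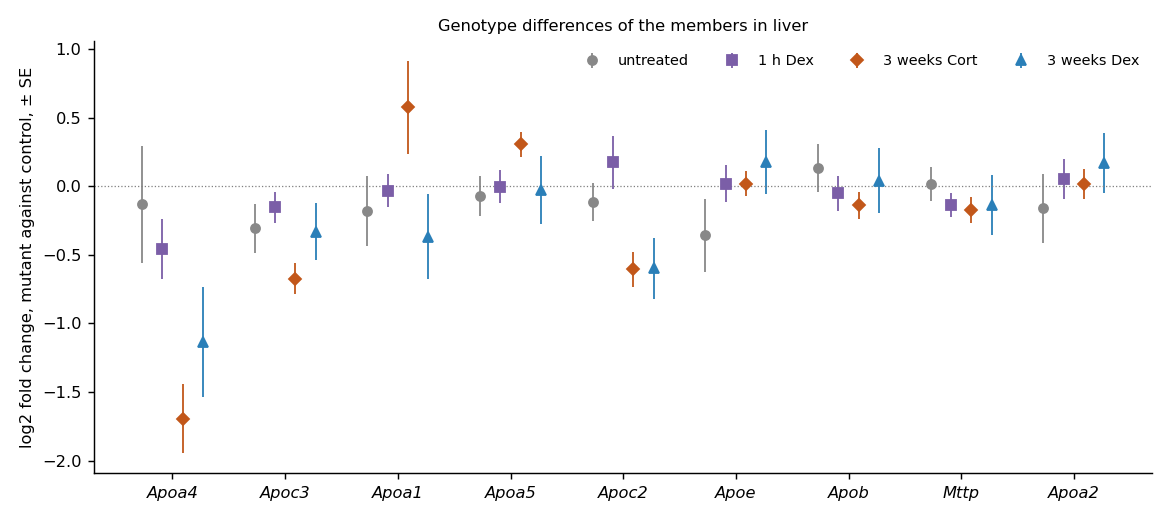
Genotype differences in liver (y axis, log2, mutant minus control) of the 9 protein-coding genes on the x axis, 1 symbol per treatment, with bars of 1 SE. Values after 3 weeks of Cort or Dex are descriptions, and no untreated or 1 h difference passed an edgeR adjusted p of 0.05; *Apoa4* lies at -1.69 after Cort and -1.13 after Dex.

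The cells that could carry these transcripts were looked at through marker lists. Enterocytes are the main intestinal source of *Apoa4*, and *Sis*, *Alpi* and *Cdx1*, which define them, were at 0 in all 30 livers. The summed enterocyte list held 50.7 to 100 CPM in livers, nearly all of it *Fabp2*, which hepatocytes also express. Macrophage and Kupffer cell markers, whose cells also make *Apoe*, summed to 108 to 140 CPM in WT and 100 to 116 CPM in E47KO livers after Cort, against 138 to 395 and 158 to 255 CPM untreated. Their part in the *Apoe* values was not tested. Skeletal muscle markers summed to 125 to 171 CPM in 5 of the 8 Cort livers (WT replicates 2 to 4 and E47KO replicates 3 and 4, the higher range of animal numbers) and to 0.830 to 1.12 CPM in the other 3. The same livers split on the principal component above, at -32.1 to -23.0 and 16.8 to 18.8. In untreated livers the muscle sums ran from 1.03 to 248 CPM. The *Apoa4* genotype difference after Cort was -1.85 in the lower range of animal numbers (2 E47KO livers and 1 WT liver). In the higher range it was -1.77 (2 E47KO and 3 WT livers). The part of this split in the *Apoa4* values was not tested. In whole tissue, fewer cells of a type and less RNA per cell cannot be told apart.

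Outside liver only *Apoe* was abundant. In WAT it stood at 1224 and 1122 CPM in WT and at 1564 and 1312 CPM in E47KO samples, which did not overlap. The difference of 0.29 (SE 0.18) did not pass (edgeR adjusted p = 0.977). Macrophage markers summed to 420 to 491 CPM in WT and 436 to 935 CPM in E47KO WAT, and their part in the *Apoe* values was not tested. *Apoc2* read 6.89 to 8.63 CPM, *Mttp* 5.90 to 7.47 and *Apoc3* 5.67 to 23.5 CPM in WAT. *Apoa4* at 0.0836 to 0.160 CPM and *Gm10680* did not pass the filter on low counts. Of the 8 genes that did, 0 passed the genotype test (0.0% of all genes, edgeR and DESeq2), 0 had an unadjusted p under 0.05, and 2 (*Apoe* and *Mttp*) had separate groups, as did 32.8% of all genes. *Alb* stood at 14.4 to 53.0 CPM in the WAT samples. It was highest in the WT sample that was also highest for *Apoa1* (7.92 CPM), *Apoa2* (6.15 CPM), *Apoc3* (23.5 CPM) and *Apob* (2.15 CPM).

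In muscle *Apoe* stood at 59.7, 55.7 and 70.9 CPM in E47KO and at 26.7 and 72.2 CPM in WT samples, and *Mttp* at 4.76 to 7.53 CPM. The liver apolipoproteins were near 0 except in WT replicate 2, the sample with hepatocyte transcripts, at 17.1 CPM for *Apoa1*, 14.0 for *Apob*, 11.2 for *Apoa2* and 4.17 for *Apoa4*. Of the 7 genes that passed the filter, 0 passed the genotype test (0.0134% of all genes, edgeR; 0 by DESeq2). *Apob* had an unadjusted p of 0.0366 with a difference of -4.46 (SE 1.70), carried by that sample. The part of the hepatocyte transcripts in these values was not tested.

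Other genes of lipoprotein metabolism were counted over lists drawn up with earlier results known. Of the 91 list genes past the filter, 26 passed the test in WT and 30 in E47KO livers after Cort, and 33 and 42 after Dex, where 33.2%, 38.9%, 31.9% and 37.8% of all genes did. Counts of this size are near the background and show nothing particular to a list. Genes are named from the 5 smallest adjusted p of each list and contrast. A gene named in 1 genotype alone may have changed in the other as well. These treatment changes were not compared between genotypes. Without the 3 untreated livers that stood apart some of the list counts changed, and those are given in brackets as rising and falling. Of 16 other apolipoproteins, 15 passed the filter in liver. In WT livers 0 rose and 7 fell after Cort, and 0 rose and 6 fell after Dex [1 and 6]. In E47KO livers 1 rose and 5 fell after Cort [1 and 7], and 0 rose and 6 fell after Dex [1 and 5]. Their median log2 change was -0.52, -0.61, -0.42 and -0.46 in that order, where the median over all genes lay between -0.04 and 0.01. The interferon-responsive *Apol9b* and *Apol9a*, near-identical copies whose reads can be misassigned, fell in both genotypes, with log2 fold changes of -5.37 and -5.56 in WT and -4.13 and -4.56 in E47KO livers after Dex, and of -1.69 and -1.66 in WT and -1.19 and -1.25 in E47KO livers after Cort. *Apool* and *Apoo*, which sit in the mitochondrial inner membrane, fell after Cort, with log2 fold changes of -0.69 and -0.52 in WT and -0.77 and -0.71 in E47KO livers. *Apom*, the carrier of sphingosine 1-phosphate, fell after Cort, at -0.73 in WT and -0.90 in E47KO livers. *Apoc1*, the neighbour of *Apoe*, fell after Dex, at -1.20 in WT and -0.87 in E47KO livers with all libraries, and at -0.53 and -0.62 without the livers that stood apart.

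Of 21 genes of lipoprotein assembly and secretion, 1 rose and 4 fell in WT livers after Cort [2 and 4], 3 and 3 in E47KO livers after Cort [5 and 5], 3 and 6 in WT livers after Dex [4 and 6], and 5 and 7 in E47KO livers after Dex. *Sort1*, a sorting receptor that binds the *Apob* protein, fell in all of these, with log2 fold changes of -2.998 and -2.81 after Cort and -2.88 and -2.73 after Dex (WT, then E47KO). *Tm6sf2*, which aids lipidation of secreted particles, rose by 0.81 and 0.66 after Cort in WT and E47KO livers and by 0.73 in E47KO livers after Dex. In WT livers after Dex the lipases *Ces3a* and *Ces1d* fell, at -1.54 and -2.24, and *Cidec*, a lipid droplet protein, rose by 3.36.

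Of 10 genes of lipolysis and lipid transfer in plasma, *Lcat*, which esterifies cholesterol on high-density lipoprotein, rose in all 4 contrasts, by 0.64 and 0.57 after Cort and by 0.52 and 0.58 after Dex (WT, then E47KO). Counts rising and falling were 2 and 1 in WT [2 and 0] and 2 and 0 in E47KO livers after Cort, and 1 and 4 in both genotypes after Dex [2 and 2 in WT, 2 and 4 in E47KO]. *Angptl8*, an inhibitor of lipoprotein lipase, rose by 2.70 in E47KO livers after Cort. *Lipg*, *Lipc* and *Pltp* fell after Dex in both genotypes with all libraries. Without the livers that stood apart, the WT calls of *Lipc* (-0.51, edgeR adjusted p = 0.0553) and *Pltp* (-1.32, edgeR adjusted p = 0.165) were lost. Of 15 lipoprotein receptors and cholesterol transporters, 14 passed the filter. *Lrp1*, a receptor for *Apoe*-bearing remnants, rose by 0.57 and 0.61 after Cort and fell after Dex, at -0.65 and -0.62 (WT, then E47KO). The fatty acid carrier *Cd36* rose by 2.82 in WT livers after Cort. Counts rising and falling in this list were 4 and 3 in WT [4 and 2] and 2 and 2 in E47KO livers [1 and 4] after Cort, and 0 and 3 in WT and 0 and 4 in E47KO livers [0 and 5] after Dex.

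Of 19 regulators of apolipoprotein genes, 2 rose and 1 fell in WT livers after Cort [4 and 2], 7 and 2 in E47KO livers after Cort [6 and 3], 5 and 3 in WT livers after Dex [5 and 2], and 7 and 5 in E47KO livers after Dex [6 and 5]. *Creb3l3*, a known activator of *Apoa4*, rose by 0.41 in E47KO livers after Cort. *Ppargc1a*, a coactivator, rose after Dex by 2.59 in WT and 1.88 in E47KO livers, and the nuclear receptor *Hnf4a* rose by 0.75 in WT livers after Dex. Of 7 genes next to the *Apoa1* cluster, *Sik3* rose by 0.97 in WT and 0.63 in E47KO livers after Dex and by 0.75 in control livers 1 h after Dex, and *Zpr1*, beside *Apoa5*, fell in the same contrasts, at -1.24, -0.997 and -1.19 (-0.55, -0.99 and -0.51 without the livers that stood apart, where the WT and 1 h calls were lost). After Cort neither was among those past the threshold, and *Sidt2* rose by 0.39 in WT and 0.35 in E47KO livers, the WT call being lost without the livers that stood apart (0.24, edgeR adjusted p = 0.0617). Of 7 genes next to *Apoe*, 1 at most rose and 1 at most fell in any of these contrasts. Between genotypes, edgeR called 0 genes of these lists in the 4 contrasts tested, with an unadjusted p under 0.05 for 2 of 91 in untreated livers, 5 of 90 at 1 h, 4 of 85 in WAT and 9 of 68 in muscle. Over all genes these were 505 of 13904, 466 of 12601, 699 of 16289 and 590 of 14962. In muscle, WT replicate 2 held the hepatocyte transcripts given above, and their part in that count was not tested.

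Across the 30 livers, the genes whose log2 CPM followed *Apoa4* most closely were *Rasl10b* (Pearson r = 0.96), *Gas2l1* (0.94), *Bahd1* (0.93), *March9* (0.93) and *Chil3* (0.93), of 16227 genes. These values describe livers that share treatment and experiment. In untreated and injected livers *Chil3* was at most 0.266 CPM and *March9* at most 0.769 CPM, so their r rests partly on values near 0. *Rasl10b*, a small GTPase, stood at 15.5 ± 7.02 CPM (SD, n = 4) in WT and 6.05 ± 2.29 CPM (n = 4) in E47KO livers after Cort, and at 40.5 ± 21.2 (n = 2) and 26.2 ± 5.56 CPM (n = 3) after Dex. Untreated livers held 0.550 ± 0.241 (n = 5) and 0.581 ± 0.182 CPM (n = 6). As for *Apoa4*, the mean was highest in WT livers after Dex and, of the long-treated groups, lowest in E47KO livers after Cort. *Rasl10b* was picked for its r over these same livers, so this likeness follows in part from the choice. Among the other apolipoproteins and *Mttp*, r with *Apoa4* was 0.65 for *Apoc2*, 0.61 for *Mttp*, 0.58 for *Apoc3*, 0.47 for *Apob* and *Apoa5*, 0.39 for *Apoe*, -0.26 for *Apoa1* and -0.34 for *Apoa2*. When each liver was taken as its deviation from its group mean, the leading genes were *Slc37a3* (0.89), *Irgm1* (0.83), *Ldha* (0.82), *Adck2* (0.78) and *Tmem209* (0.77), and the r of *Mttp* was 0.42, of *Apoe* -0.51 and of *Apoa2* -0.55. The untreated livers that stood apart, highest in their groups for *Apoe* and *Apoa2*, were included, and their part in these r values was not tested.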

How the data were processed

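Poly(A) RNA from 39 mouse tissues was sequenced with stranded or unstranded kits. The authors used STAR 2.4.2a for mapping to mm10 and, by their methods, for counting. They deposited counts per Ensembl gene, with 1 unstranded column after 3 weeks of Dex (closing lines in the layout of HTSeq, which the submitters' processing notes also name) and 3 columns (unstranded and both strand settings) otherwise. Deposited tables of the authors' own fold changes, p-values and normalised values were not used. Entries naming no gene (20.8 to 36.8% of each library) were left out.

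The unstranded counts, the only kind common to all libraries, were scaled by TMM and tested with edgeR 4.0.16 (R 4.3.3; filterByExpr, quasi-likelihood, Benjamini-Hochberg, threshold 0.05). Levels are TMM-scaled CPM over all 39 libraries. Genotype was fitted in each experiment and tissue alone, whereas treatment was fitted in 1 model of the 30 livers. P-values set a group difference against the spread between mice within groups. In the treatment model the 8 liver groups share 1 estimate of that spread. Positions and exon lengths came from GENCODE M21 and RefSeq GRCm38.p6. Depth was 15513941 to 54560884 counts per library. SDs are the spread between mice, and SEs are those of the fitted log2 fold changes. No 2 libraries of a group held repeated counts (lowest chi-square per degree of freedom 15.9). Mice 215, 230 and 231 gave both liver and muscle. Replicate numbers were not treated as pairs in the main fits. The genes and lists were chosen with earlier results of these data known. All 10 genes are named, and from each list up to 5 genes per contrast with the smallest adjusted p, some of which are not reported here. Alternatives were RLE scaling, no filter, the strand column, DESeq2 1.42.0, a replicate block, animal-number ranges and leaving out libraries. The fits were tested on simulated data.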

Additional observations from a re-analysis of the deposited data

Results flagged for a closer look

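In untreated E47KO livers, replicate 1 lay far from the other 5 for 2 genes, by Dixon's ratio of its gap to the range, above the 95% critical value for 6 samples. For *Apoa2* the ratio was 0.803, with 10293 CPM against 6125 CPM in the nearest liver and 5104 CPM in the lowest. For *Apoc3* it was 0.802, with 2113 CPM against 1443 and 1278 CPM. This is 1 of the 3 untreated livers that stood apart. Of 36 gene and group combinations examined, 2 met this criterion, and chance gives about 1 in 20.

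*Mttp* had genotype differences of opposite sign in 2 settings, every mutant sample being lower in E47LKO livers 1 h after Dex (-0.14) and higher in E47KO WAT after 3 weeks of Dex (0.17). Neither difference passed the edgeR test, and groups were separate for 8.13% and 32.8% of all genes there. The difference of -0.302 between them was not tested.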

How the results depend on the processing

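Over 74 values and 572 alternatives, 522 were labelled unchanged and 36 had a lost call or fewer calls. Of the rest, 2 gained calls, 9 levels moved by more than the replicate SD and 3 turned sign. Unchanged meant the same direction and side of the threshold for a tested gene. For a described difference or a level it meant a move within the replicate SD. For a count of genes called it meant a change within a set ratio, so small changes in count are among the 522. Where a cause is not named it was not tested. These 3 sign changes were all of *Apoa4* in untreated livers (-0.13), at 0.0763 with a replicate block and between -0.36 and 0.25 on leaving out 1 liver. The 74 values did not include every gene in every contrast. *Apoe* in WT livers after Dex, whose turn of sign is given above, was not among them. Counts of genes called on leaving out 1 liver were 3 to 5 for WT Cort, 3 to 4 for E47KO Cort, 1 to 5 for WT Dex, 2 to 4 for E47KO Dex and 1 to 2 at 1 h. Without the 3 untreated livers that stood apart (chosen after seeing the data) they were 7 for WT Dex, 5 for E47KO Dex and 1 at 1 h, and at 1 h the count was 1 without the filter on low counts. On leaving out 1 liver, the described *Apoa4* differences ranged from -1.54 to -0.56 after Dex and from -1.86 to -1.55 after Cort. For Cort minus untreated they ranged from -1.92 to -1.31. The other alternatives gave -1.30 to -0.96 after Dex, -1.81 to -1.67 after Cort and -1.66 to -1.20 for Cort minus untreated. *Apob* lost its WT Cort call also without the filter (0.42), with the strand column (0.34) and without untreated WT replicates 1, 2 or 5, and its 1 h call without the filter and without untreated WT replicates 1 or 2. TMM over mixed tissues lowered WAT levels: unscaled, *Apoe* was 1947 CPM in WT and 2368 CPM in E47KO WAT, against 1173 and 1438.

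Deviations of samples with the same replicate number correlated positively in 3 settings. The values were 0.0646 to 0.807 in untreated, 0.0097 to 0.226 in 1 h and 0.0247 to 0.714 in Cort livers. Their means were 0.34, 0.13 and 0.37, beside -0.067, -0.065 and -0.12 for different numbers. After 3 weeks of Dex the same-number values were -0.51 to -0.062 in liver, -0.079 to 0.18 in muscle and -0.27 in WAT. Whether the numbers mark pairs was not tested. With a replicate block, the *Apoa4* difference was -1.30 after Dex and -1.67 after Cort, the WT Dex count was 3 because *Apoc2* was lost (0.54), and no other count changed. No paired analysis was possible in WAT because its genotypes share 1 number.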
